A study of Neurospora crassa with 24 samples.

Results

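In liquid cultures of the fungus *Neurospora crassa* without *msn-1*, 21 genes lay below the wild type at every one of 12 matched times in darkness. They were selected on exactly these values, from the 6181 of 9730 genes with a wild-type mean of 5 CPM or more (estimated counts scaled to a common library sum). A gene was taken when it was lower in the knockout at all 12 times and its mean difference in log2(CPM + 1), knockout minus wild type, was −0.7 or lower, and the deleted gene itself was left out. The strain differences given here are therefore a description of the selection and were not tested. The same rule turned around gave 95 genes that were higher in the knockout. With library sums scaled by the trimmed mean of M values (TMM), a setting that recentres all genes, the counts were 39 lower and 65 higher, the latter added after the data were seen.

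The study followed RNA over a day of darkness in the wild type (WT, strain FGSC #2489) and in a knockout of *msn-1* (NCU02671; ΔMSN1, strain FGSC #11345). Both strains grew in a glucose medium (Vogel's, 2% glucose) that also held 0.5% arginine, went through 2 days of light and dark phases of 11 h each, and were then kept dark. There was 1 culture per strain and time, from 0 h (lights off) to 22 h in steps of 2 h, which gave 12 poly(A) libraries per strain. Each strain was 1 isolate, and a sequencing lane was named only in the 12 ΔMSN1 labels, so the deletion, the strain background and the lane cannot be told apart.

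MSN1 is the counterpart of the yeast zinc finger proteins Msn2 and Msn4. In *Saccharomyces cerevisiae* these factors enter the nucleus under heat, oxidative or osmotic stress and when glucose runs short, bind stress response elements in promoters, and raise a broad set of protective and carbohydrate genes. In *N. crassa* the circadian clock, a feedback loop around FRQ and the white collar complex, imposes daily rhythms on transcripts, and the dark time courses read those rhythms out beside the effect of the strain.

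*msn-1* was present at 25.7 to 50.8 CPM in WT (mean 36.9 ± 7.95, SD, n = 12) and was listed at 0 in 11 of the 12 ΔMSN1 libraries. The libraries summed to between 2415479 and 9829687 estimated counts. Over the 6181 genes the median difference was 0.16 on the log2 scale, from −0.18 at 16 h to 0.42 at 8 h. With TMM the median was 0.0032, so most genes sat slightly above WT on the plain CPM scale, and the 21 genes were lower against that background. edgeR called 726 of 7309 tested genes lower in ΔMSN1 (9.93%) and 869 higher (11.9%), and all 21 genes were among them, from which nothing is read because they were selected on the same contrast.

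The group ranged in WT from 5.42 CPM (NCU08176) to 127 CPM (NCU10031), with a median of 18.5 CPM against 25.7 CPM over all 6181 genes. Their mean in ΔMSN1 stood between 14.7 and 62.6% of WT, with a median of 41.9%, and for 17 of the 21 genes the WT mean was at least 2 times that of ΔMSN1. Being below WT at every time was itself uncommon, since 50 of the 6181 genes (0.809%) were. In 9 of the 21 genes the highest ΔMSN1 library lay under the lowest WT library, whatever the times, as it did in 0.162% of all genes. Such a gene is below WT at every time by necessity, so this separation is not free of the selection. The 10 genes behind that share were these 9 and the deleted *msn-1*, and nothing is read from the comparison. Only 7 of the genes have a symbol or an informative product name, 6 are listed as hypothetical proteins and 8 have neither a symbol nor a product name in the sources used here.

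**Figure D1:**
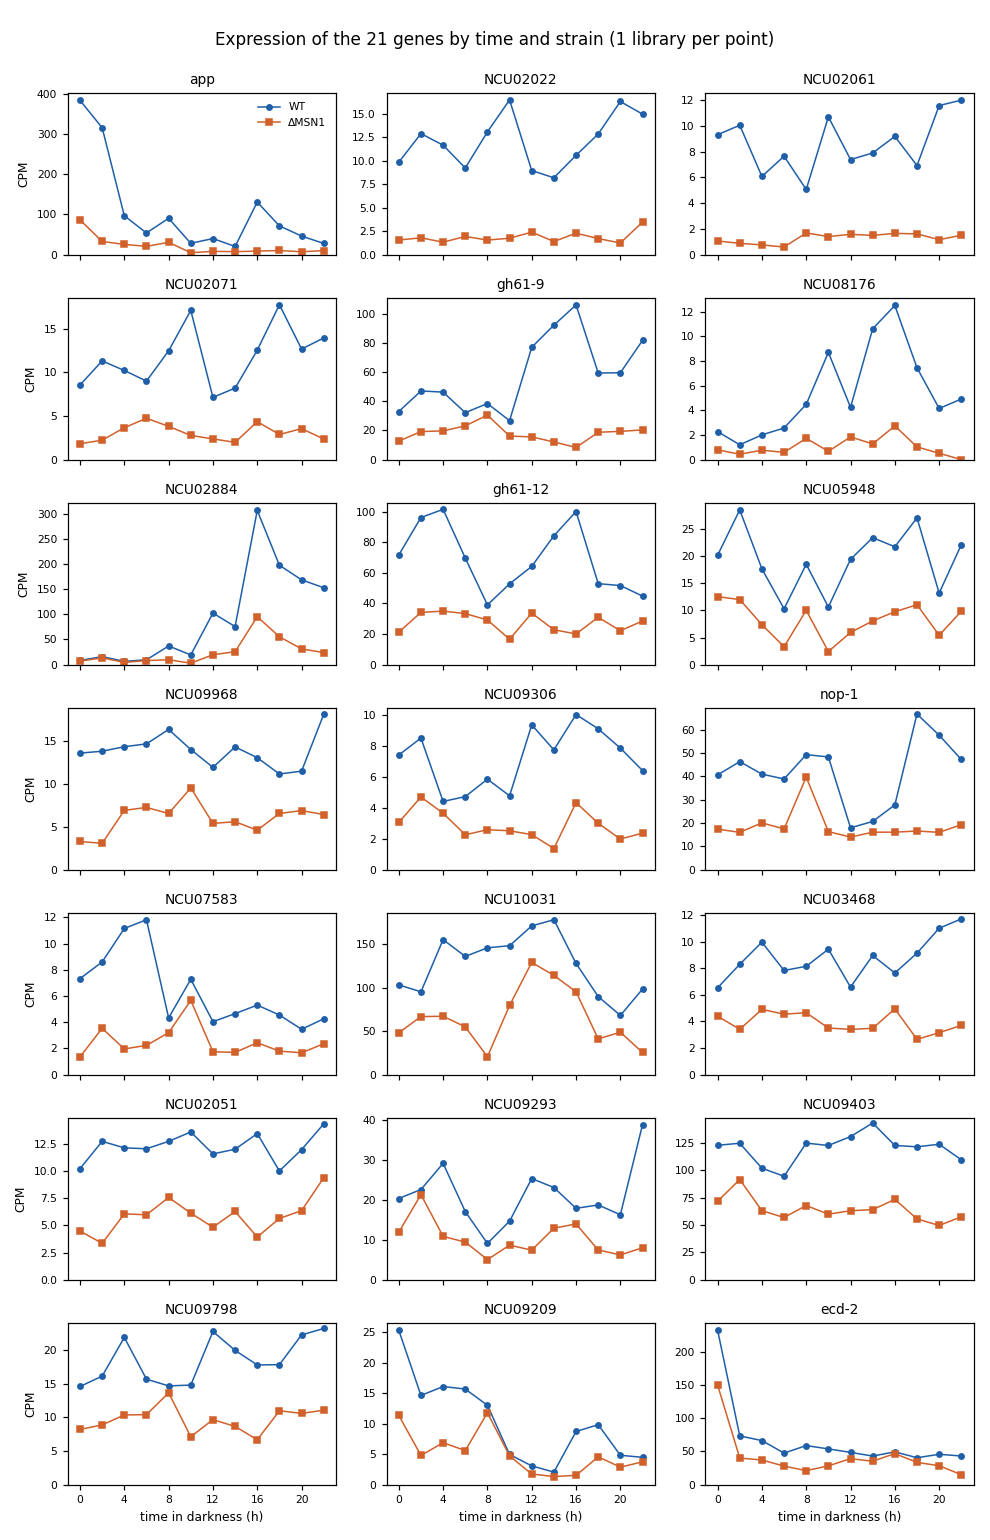
Expression in CPM (y axis, each panel from 0) against time in darkness in h (x axis) for the 21 genes, ordered by mean difference, with 1 library per point, circles for WT and squares for ΔMSN1. The ΔMSN1 line runs under the WT line at all 12 times, which is how the genes were chosen, while the shapes differ from the steep fall of *app* and *ecd-2* after 0 h to the late rise of NCU02884 and the level course of NCU09403.

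The gene with the lowest mean difference was *app* (NCU04533), which encodes the abundant perithecial protein, named for the fruiting bodies of the sexual cycle in which it accumulates. In WT it lay between 20.0 and 384 CPM with a median of 62.5, and in ΔMSN1 between 4.43 and 86.4 CPM with a median of 9.91. Its mean difference was −2.22 (SD 0.77 over the 12 times), from −1.36 at 6 h to −3.79 at 16 h. Both strains had their highest level at lights off, and the later WT libraries overlapped the early ΔMSN1 ones, with 7 of the 12 ΔMSN1 libraries under the lowest WT value. In RNA of whole cultures, fewer expressing cells and less RNA per cell cannot be told apart. At 16 h WT showed a further, lower maximum of 131 CPM that had no counterpart in ΔMSN1, which stood at 8.53 CPM.

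The opsin gene *nop-1* (NCU10055) encodes a retinal-binding protein related to archaeal rhodopsins and is one of the light sensors of the fungus. It lay between 17.9 and 66.7 CPM in WT (median 43.6) and between 13.9 and 39.6 CPM in ΔMSN1 (median 16.4), a mean difference of −1.08 (SD 0.56). The WT level dipped to between 17.9 and 27.7 CPM from 12 to 16 h and was highest at 18 h. ΔMSN1 was nearly level at 13.9 to 20.0 CPM apart from the library of 8 h, which held the 39.6 CPM. The strains overlapped, and 9 of 12 ΔMSN1 libraries were under the lowest WT value.

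The genes *gh61-9* (NCU05969) and *gh61-12* (NCU02344, a protein with a fungal cellulose binding domain) belong to the GH61 family, copper enzymes now called lytic polysaccharide monooxygenases that cut cellulose and related chains by oxidation. *gh61-9* lay between 26.7 and 106 CPM in WT (median 53.1) and between 8.29 and 30.4 CPM in ΔMSN1 (median 18.9), with a mean difference of −1.58 (SD 0.95). Its courses ran apart in time: WT was at 26.7 to 47.0 CPM up to 10 h and at 59.3 to 106 CPM from 12 h on, and its maximum at 16 h coincided with the minimum of ΔMSN1. *gh61-12* lay between 39.1 and 102 CPM in WT (median 67.0) and between 16.6 and 35.0 CPM in ΔMSN1 (median 28.8), with a mean difference of −1.28 (SD 0.55). For *gh61-12* the strains did not overlap, and for *gh61-9* they met only through the ΔMSN1 library of 8 h.

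Of the 12 *gh61* genes in the annotation, 7 had a mean of at least 2 CPM and could be tested between the strains. With matched time as a factor, edgeR called 3 of them lower in ΔMSN1 (42.9%, against 9.93% of all genes) and 1 higher (14.3%, against 11.9%) at an adjusted p under 0.05, with a median difference of −0.18 against 0.16 over all genes. The third lower gene was *gh61-3* (NCU02916), with a WT mean of 8.59 ± 2.08 CPM and a ΔMSN1 mean of 5.02 ± 1.28 CPM (SD, n = 12), log2 fold change −0.91, adjusted p = 2.35e-04. The higher gene was *gh61-5* (NCU08760), with a WT mean of 5.89 ± 1.13 CPM and a ΔMSN1 mean of 9.26 ± 2.36 CPM, log2 fold change 0.48, adjusted p = 0.0145. *gh61-6* (NCU03328), the third most abundant of the family in WT, stood at 32.8 ± 7.19 and 37.7 ± 8.35 CPM and was not called (adjusted p = 0.916). The family was put together after the values of its members were known, so its counts carry no weight of their own.

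**Figure D2:**
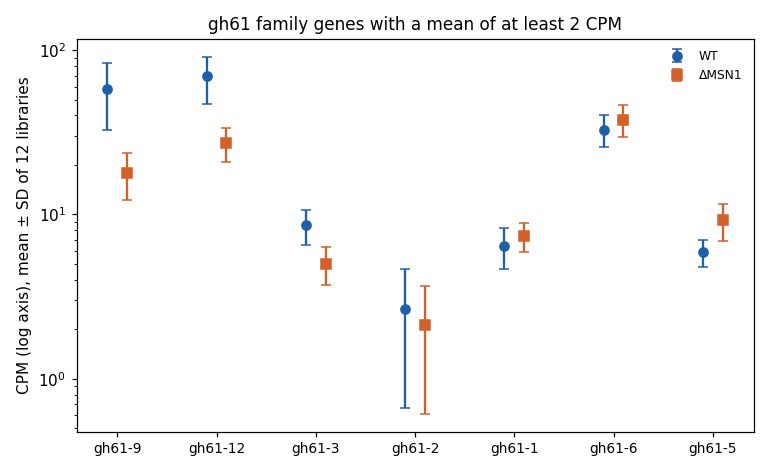
Expression of the 7 testable *gh61* genes in CPM (y axis, log scale), ordered by strain difference, as the mean and SD of 12 libraries for WT (circles) and ΔMSN1 (squares). *gh61-9* and *gh61-12* stand apart between the strains, whereas *gh61-5* is higher in ΔMSN1 at 9.26 against 5.89 CPM.

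The oxidoreductases NCU10031, listed as a monooxygenase, and NCU09209, listed as a galactose oxidase, a copper enzyme that oxidises the primary alcohol of galactose, varied within the day as well as between the strains. NCU10031 was the most abundant gene of the group, between 68.2 and 178 CPM in WT (median 132) and between 20.6 and 129 CPM in ΔMSN1 (median 61.0), with a mean difference of −1.06 (SD 0.70). Both strains rose towards 12 to 14 h, and the gap was widest at 8 h, where ΔMSN1 had its lowest value. NCU09209 lay between 2.06 and 25.3 CPM in WT (median 9.28) and between 1.34 and 11.8 CPM in ΔMSN1 (median 4.64), with a mean difference of −0.82 (SD 0.59). At 10 h the strains were nearly level (difference −0.06), and the ranges overlapped broadly. The WT maximum was 2.62 times the minimum in NCU10031 and 12.3 times in NCU09209, against ratios of the strain means of 1.92 and 2.01. Over the 110 oxidoreductases found by product name, 107 could be tested, of which 37 were called lower (34.6%, against 9.93% of all genes) and 11 higher (10.3%, against 11.9%) in ΔMSN1, with a median difference of −0.05 against 0.16. Product names were at hand only for genes that the study listed as circadian or harmonic in WT. All genes are therefore not a like background for these shares.

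The 3 genes with the next lowest mean differences after *app* all lie on chromosome I and carry no informative product name. NCU02022 lay between 8.18 and 16.5 CPM in WT (median 12.2) and between 1.23 and 3.46 CPM in ΔMSN1 (median 1.72), with a mean difference of −2.19 (SD 0.41). NCU02061, a hypothetical protein, lay between 5.05 and 12.0 CPM in WT (median 8.53) and between 0.583 and 1.68 CPM in ΔMSN1 (median 1.44), with a mean difference of −2.07 (SD 0.43). These levels are 15.4 and 14.7% of WT and were low at every time of the day, with no overlap between the strains. They also rest on few reads, since the lowest ΔMSN1 libraries held 4.93 estimated counts of NCU02022 and 3.46 of NCU02061.

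NCU02071 lay between 7.14 and 17.8 CPM in WT (median 11.9) and between 1.82 and 4.74 CPM in ΔMSN1 (median 2.82), with a mean difference of −1.65 (SD 0.45). NCU02051 lay between 10.0 and 14.4 CPM in WT (median 12.1) and between 3.35 and 9.39 CPM in ΔMSN1 (median 6.02), with a mean difference of −0.99 (SD 0.33). Both strains stayed apart at all times in both genes, and NCU02051 was the steadiest gene of the group in WT, with a coefficient of variation (CV) over the day of 10.4%.

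These 4 genes lie within one stretch of 50 genes on chromosome I, by the gene order of the reference annotation (assembly NC12). The stretch was noticed after the values were seen, and its counts are a description. Of its genes 31 reached 5 CPM in WT, and 5 of them (16.1%) were below WT at every time, against 0.809% of all genes. Among these 5 were the 4 of the group, which were selected for being lower at every time. The ends of the stretch were also set at genes of the group, NCU02071 and NCU02022. The share is therefore built in, and nothing is read from it. The remaining genes of the stretch had a median difference of 0.09 and ran from −0.63 to 0.40. edgeR called 8 of these 27 genes lower (29.6%, against 9.93% of all genes).

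The stretch ends 64 genes short of *matA-1* (NCU01958), the regulator gene of the mating type A locus, on the same chromosome. *matA-1* was low but present in all 12 WT libraries, at 0.613 to 2.31 CPM with a median of 1.20, and was listed at 0 in 12 of 12 ΔMSN1 libraries. *matA-2* and *matA-3* of the same locus were at 0 in 11 and 6 of the WT libraries and at 0 in every ΔMSN1 library, too low to compare. The next gene, NCU01957, stood at 2.52 to 25.1 CPM in WT (median 8.20) and 0.746 to 3.60 CPM in ΔMSN1 (median 1.80), and was kept out of the group only because ΔMSN1 was not below WT at 12 h. Of the 49 genes after NCU02022, up to and including NCU01957, that reached 5 CPM in WT, 0 belonged to the group. With 21 of all 6181 genes in the group, nothing is read from that count. Among the 49, edgeR called 13 lower (26.5%, against 9.93% of all genes) and 4 higher (8.16%, against 11.9%). The mating type of the strains is not given in the labels, and its part in the differences was not tested.

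**Figure D3:**
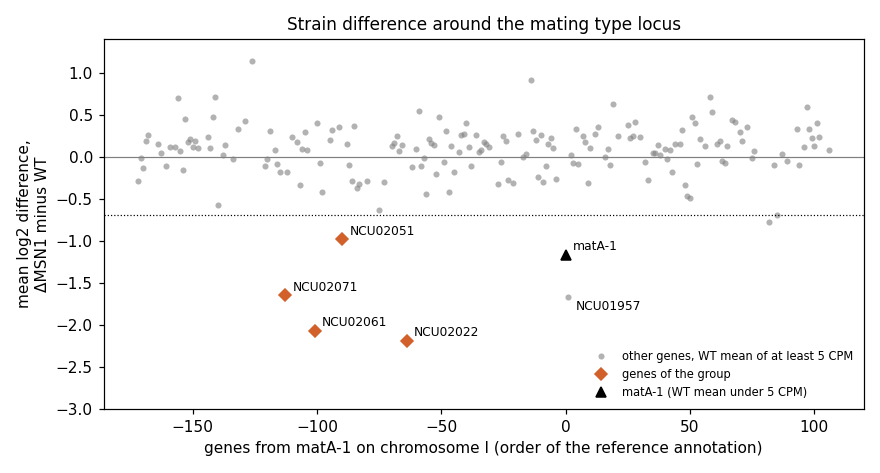
Mean difference in log2(CPM + 1), ΔMSN1 minus WT (y axis), of the genes around the mating type locus against their distance from *matA-1* in genes (x axis), with diamonds for the 4 genes of the group, a triangle for *matA-1* and dots for other genes with at least 5 CPM in WT. The 4 diamonds lie from −0.99 to −2.19 while the dots among them stay between −0.63 and 0.40, and the dotted line marks −0.7.

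The hypothetical protein NCU02884 had the widest course of the group. In WT it lay between 6.51 and 307 CPM (median 56.4), and in ΔMSN1 between 2.80 and 95.4 CPM (median 16.5), with a mean difference of −1.48 (SD 0.94). Up to 10 h WT stayed at or under 37.0 CPM, and from 12 h on at 75.7 CPM or more, with the maximum at 16 h in both strains. The strain gap ran from −0.21 at 0 h to −2.63 at 22 h, and the ranges overlapped widely.

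NCU08176, with no product name, also peaked at 16 h in both strains. It lay between 1.20 and 12.5 CPM in WT (median 4.36) and between 0 and 2.73 CPM in ΔMSN1 (median 0.773), with a mean difference of −1.54 (SD 0.73). It was the only gene of the group with a library at 0 (ΔMSN1 at 22 h), and it and *ecd-2* were the closest pair on a chromosome, 4 genes apart on chromosome VII. *ecd-2* (NCU08173) lay between 40.6 and 233 CPM in WT (median 49.0) and between 15.1 and 150.2 CPM in ΔMSN1 (median 34.5), with a mean difference of −0.70 (SD 0.44). It was highest at lights off in both strains, like *app*, and at 16 h the strains were nearly level (difference −0.08).

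In WT 5 genes kept a level course, with a CV under 20%, and in none of these 5 did the strains overlap. The rule itself favours such separation where the WT range is narrow, so nothing is read from it. The median CV was 30.1% over the group and 17.1% over all 6181 genes. Besides NCU02051 the level genes were NCU09403, NCU09968, NCU03468 and NCU09798. NCU09403 was abundant, at 94.5 to 143 CPM in WT (median 123) and 49.5 to 91.5 CPM in ΔMSN1 (median 63.0), a mean difference of −0.90 with the smallest spread of the group (SD 0.24). NCU09968 lay at 11.2 to 18.2 CPM in WT (median 13.9) and 3.08 to 9.56 CPM in ΔMSN1 (median 6.51), a mean difference of −1.13. The other two, NCU03468 and NCU09798, differed by −0.99 and −0.87, and in NCU09798 the strains came within −0.10 of each other at 8 h although their ranges stayed apart.

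The remaining 4 genes are hypothetical proteins whose strains overlapped. NCU05948 lay at 10.3 to 28.6 CPM in WT (median 19.8) and 2.41 to 12.5 CPM in ΔMSN1 (median 8.91), a mean difference of −1.21 with a narrow spread (SD 0.30). Its highs and lows fell together in the strains, with lows at 6 and 10 h in both. NCU09306 differed by −1.09 and NCU07583 by −1.07, both at WT means under 8 CPM (7.18 and 6.40). NCU09293 differed by −0.98, with values at 2 h of 22.5 CPM in WT and 21.3 CPM in ΔMSN1, a difference of −0.08.

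**Figure D4:**
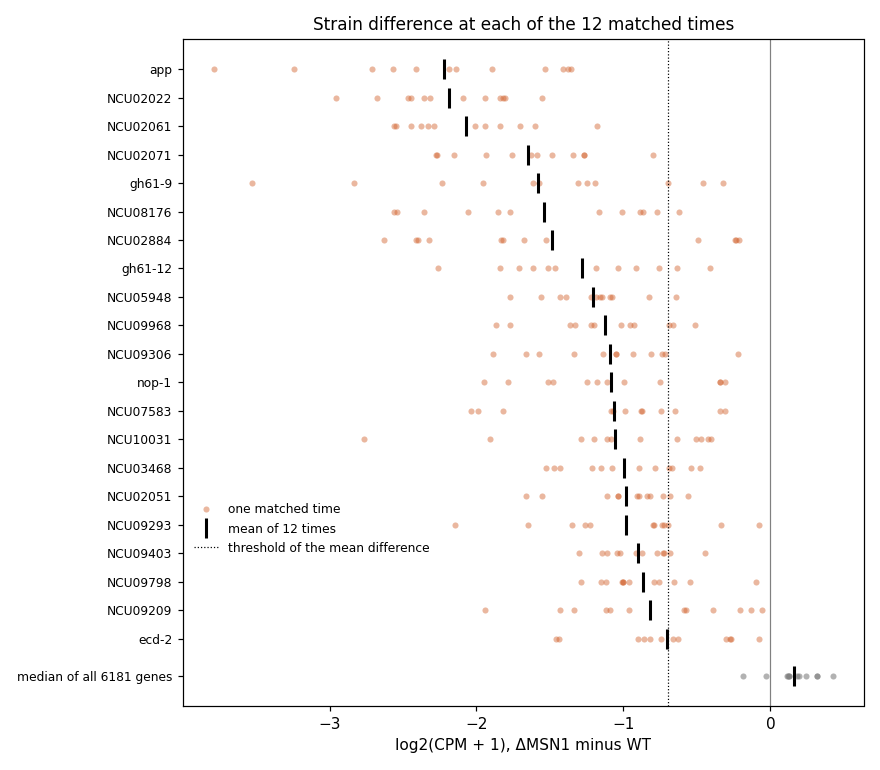
Difference in log2(CPM + 1), ΔMSN1 minus WT (x axis), at each of the 12 matched times (dots) and their mean (bars) for the 21 genes, with the median over all 6181 genes at each time in the bottom line. All dots of the group lie under 0, as selected, with the spread from SD 0.24 in NCU09403 to SD 0.95 in *gh61-9*, and the dotted line marks the threshold of −0.7.

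The gap was not equally wide through the day. The median difference over the 21 genes lay between −0.87 at 8 h and −1.41 at 22 h, and at 8 h the median of all genes also stood at its highest, 0.42. The ΔMSN1 library of 8 h was the highest of its strain in 5 of the 21 genes and the closest to WT in 5. Around the threshold the selection was a continuum: *ecd-2* (−0.70), NCU09209 (−0.82) and NCU09798 (−0.87) were the last inside, and *gh61-3* (−0.68), NCU06945 (−0.67) and NCU09534 (−0.65), also lower at all 12 times, were the first outside. NCU06945 and NCU09534 were abundant, with WT means of 186 and 121 CPM and ΔMSN1 means of 118 and 75.0 CPM. In all 28 further genes were lower at every time with a smaller mean difference, and 57 passed the mean difference but not at every time.

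Whether the levels changed over the day was asked in a term the selection did not use, the 22 h component, fitted in edgeR together with its shorter harmonics. The fit treats 0 and 22 h as the same phase although 0 h is lights off. In a fit shared by both strains, 4 of the 21 genes were called at a false discovery rate of 0.1, as were 5.1% of the 7309 genes tested, and 7 of the 21 reached an unadjusted p under 0.05 against 16.1% of all genes. NCU02884 had a peak-to-trough fold of 17.8 with a fitted peak at 16.6 h (adjusted p = 9.04e-04), and NCU08176 a fold of 4.98 at 14.0 h (adjusted p = 5.33e-04). Both calls held with any 1 time left out. NCU09209 had a fold of 4.15 at 3.18 h (adjusted p = 0.0364), a call that was lost without 4, 14 or 16 h (adjusted p = 0.288, 0.307 and 0.155). NCU10031 had a fold of 2.08 at 11.8 h (adjusted p = 0.0729), and this was lost in 10 of 12 leave-outs, with adjusted p up to 0.259. *app* reached a fold of 4.27 at 1.81 h but was not called by edgeR (adjusted p = 0.119), while DESeq2 called it (adjusted p = 0.0851).

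**Figure D5:**
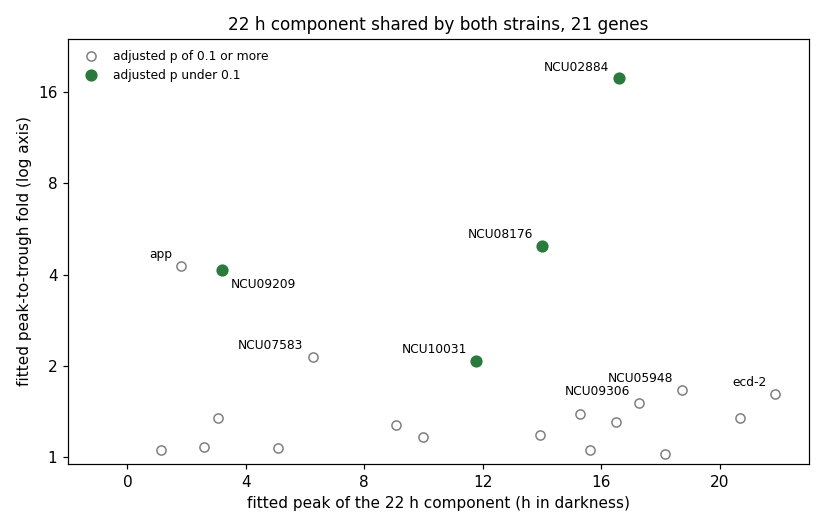
Fitted peak-to-trough fold (y axis, log scale) against fitted peak time in h of darkness (x axis) of the 22 h component shared by both strains, for the 21 genes, filled where the adjusted p was under 0.1. The 4 filled points peak at 3.18, 11.8, 14.0 and 16.6 h, and most open points lie under a fold of 2.

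Taken alone, WT gave 3 called genes of the 21, against 2.33% of all genes tested, namely NCU08176 (fold 5.64, adjusted p = 0.0279), NCU10031 (fold 2.11, adjusted p = 0.0390) and NCU02884 (fold 25.5, adjusted p = 0.0932). These calls rested on single libraries, since the count was 0 without 16 h and 7 without either 0 or 22 h. In ΔMSN1 18 of the 21 genes reached the minimum of 2 CPM for the test, and edgeR called 0 of them, against 0.219% of all genes tested. At an unadjusted p under 0.05 there were 5 of the 18, and DESeq2 called 1, NCU02884 (adjusted p = 0.0121), for which edgeR gave a fold of 12.2 and an adjusted p of 0.118.

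A call in WT and none in ΔMSN1 does not show a difference between them, which was tested as a strain by 22 h term. The rule kept the difference below 0 at every time, which limits in part how far the strain courses of these genes could differ. The counts for this term are therefore not free of the selection. edgeR called 0 of the 21 genes, against 0.0821% of all genes, with 2 of 21 at an unadjusted p under 0.05 and 1 called by DESeq2. The gene called by DESeq2 was *gh61-9*, whose fitted WT peak was at 16.2 h and whose fitted ΔMSN1 peak was at 5.40 h, with folds of 2.47 and 1.60. Its p was 0.00124 in edgeR (adjusted p = 0.431) and its adjusted p 0.0305 in DESeq2. The other was *nop-1*, with a fold of 1.73 at 1.65 h (WT) and of 1.34 at 7.76 h (ΔMSN1; adjusted p = 0.855).

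With each strain set to its own mean, the courses of some genes ran together over the 24 libraries, given as a description since every gene shares the libraries. *app* went with NCU09209 (Pearson r = 0.80) and *ecd-2* (r = 0.64), genes that were highest at lights off in WT, and NCU08176 went with NCU02884 (r = 0.58), the genes highest at 16 h in both strains. NCU09209 and NCU02884 ran against each other (r = −0.62). Other pairs were as close, such as NCU09798 with *gh61-9* (r = 0.75) and NCU07583 against NCU02884 (r = −0.68).

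The group held none of the 22 annotated genes of the list of stress genes, heat shock proteins, catalases, superoxide dismutases and glycerol and trehalose enzymes among them. With 21 of 6181 genes in the group, a list of this size would by share alone hold none, so nothing is read from it. Of the 21 listed stress genes that could be tested, edgeR called 5 lower (23.8%, against 9.93% of all genes) and 1 higher (4.76%, against 11.9%) in ΔMSN1, with a median difference of −0.08. The lower ones were *ccg-1* (log2 fold change −0.53, adjusted p = 2.74e-04), a glucose-repressible clock-controlled gene, *sod-1* (−0.50, adjusted p = 0.00926), *hsp30* (−0.54, adjusted p = 0.0415), *hsp98* (−0.31, adjusted p = 0.0128) and *hsp70-1* (−0.44, adjusted p = 0.0487), and the higher one was the catalase gene *cat-2* (0.45, adjusted p = 0.00154). On the plain CPM scale *ccg-1* was below WT at all 12 times by a mean of −0.36. Of 10 genes of the sexual cycle other than *app*, 3 could be tested, and the lowest adjusted p in edgeR was 0.0917 (*asd-1*), while *mfa-1* and *fmf-1* were at 0 in all libraries. Markers of conidia were present in both strains, with a summed level of 1095 to 6171 CPM in WT and 926 to 5462 CPM in ΔMSN1 over 9 genes, of which 7 could be tested and 1 was called lower (14.3%, against 9.93%), and their part in the differences was not tested. Nor was any of 63 transporters found by product name in the group, from which again nothing is read. edgeR called 21 of the 60 tested transporters lower (35.0%, against 9.93% of all genes) and 4 higher (6.67%, against 11.9%). These transporters too were drawn only from genes that the study listed as circadian or harmonic in WT.

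The genes were spread over 5 of the 7 chromosomes. Chromosome VII held 8 (1.33% of its 601 genes at 5 CPM in WT), chromosome I 7 (0.438% of 1597) and chromosome VI 4 (0.685% of 584), and there was 1 each on II and IV and 0 on III and V. No pair of them was adjacent. On each side the nearest gene outside the group that reached 5 CPM in WT was also looked at, passing over lower genes. Of these 40 genes, 0 were below WT at every time, against 0.809% of all genes. The threshold was passed by 0 of them, against 79 of the 6181 genes. At such low shares these counts are not read further. The median difference of the 40 genes, 0.08, was near that of all genes. Their lowest difference was −0.56, in NCU10045 on one side of *gh61-9*.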

How the data were processed

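The files hold estimated counts per gene, which the authors deposited for 24 libraries. The submitters' processing notes name kallisto 0.43.1, and no genome build is stated. The scaling of the values is not stated either. In 852 genes the smallest value above 0 fell with gene length (Pearson r = −0.77 across genes, ln scales), so values times gene length were run as an alternative and levels may already be per length. Every column was mapped to a sample (0 left unmapped).

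CPM is each value divided by its library sum on the usual counts-per-1e6 scale, and levels are compared as log2(CPM + 1) with a pseudocount of 1 CPM. For tests the estimated counts were rounded to whole numbers. edgeR 4.0.16 (R 4.3.3; quasi-likelihood F test, TMM, Benjamini-Hochberg adjustment over all genes whose mean reached 2 CPM) tested strain with time as a factor (adjusted p under 0.05) and the 22 h cosine and sine pair among 6 harmonic terms of 22, 11 and 7.33 h (false discovery rate 0.1), shared by the strains, within each strain, and as a strain difference. DESeq2 1.42.0 (likelihood ratio test for rhythms) was an alternative, beside other scalings, filters, pseudocounts and leaving out each time. Tables and plots were made in Python 3.11.15 with pandas 2.3.3, numpy 2.4.6, matplotlib 3.10.9 and scipy 1.17.1. Because each time has 1 culture per strain, no spread between replicate cultures of a time enters the p-values. In the strain test they measure the spread of the strain difference over the times. For the rhythm fits they measure the departure of the cultures from the fitted terms. No spread between isolates enters either. Tested on simulated data with 7309 genes, the strain test recovered 33 of 50 genes changed 1.5-fold and 49 of 50 changed 2-fold (9 of 191 calls false), and the shared 22 h test 20 of 50 and 46 of 50 (13 of 179 calls false). The simulated counts had an assumed dispersion and held no change besides the one tested. These figures therefore need not hold for the real libraries.

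The genes and lists were chosen with earlier results of these data known. The text names the genes with the largest difference, the highest level or the smallest 22 h p, those in a list, those with a symbol and those next to the threshold, which together cover the whole group. Names and gene order come from the RefSeq table of assembly NC12 (9729 of 9730 genes matched) and product names from the study's gene lists (1847 genes, 10 of the 21). Those lists hold genes that the study called circadian or harmonic in WT. Lists by product name therefore cover a part of the genome that was chosen on rhythms, and their shares against all genes are not a like comparison. Strain and time pair the libraries by the labels alone.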

Additional observations from a re-analysis of the deposited data

How the results depend on the processing

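The strain differences of the 21 genes kept their sign in 294 of 294 gene and setting combinations (TMM, values times gene length, leaving out each time). With a time left out the sign was fixed in advance, because the rule required a lower value at every time. The other settings had little room to change it. TMM moved the median over all genes from 0.16 to 0.0032, which sets lower genes further below 0. Gene length multiplies a gene alike in both strains, apart from the library sums, and the median stayed at 0.16. Nothing is therefore read from the kept signs. How many genes met the rule moved with the scaling: 39 with TMM, of which 20 were among the 21, 18 with values times gene length, 22 and 14 with pseudocounts of 0.5 and 5 CPM, and 20 to 26 with a time left out, *ecd-2* being the gene most often lost. The median difference was −0.86 with a pseudocount of 5 CPM and lay between −1.14 and −1.07 with a time left out. Without the replicate block (matched time as a factor) edgeR called 640 genes lower in place of 726, and 542 to 821 with a time left out. For the shared 22 h component 146 to 512 genes and 2 to 6 of the 21 were called with a time left out, the lowest counts being those without 4 h (146 genes), and 2 of the 21 without 4, 14 or 16 h. In WT alone DESeq2 called 5 of the 21, and leaving out a time gave 0 to 7. In ΔMSN1 alone DESeq2 called 1, and leaving out a time gave 0 to 1. For the strain by 22 h term DESeq2 called 1, and leaving out a time gave 0. The WT calls of NCU02884, NCU08176 and NCU10031 were lost in 10, 2 and 6 of the leave-outs (adjusted p up to 0.371, 0.142 and 0.141). The cause of these shifts was not tested. Without replicate cultures at a time, a single culture cannot be told from its time, and in low genes (NCU08176 at 0 to 2.73 CPM in ΔMSN1) depth limits the values. The planned promoter motif share was not run.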

Other observations

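Among genes outside the group, *eas*, the hydrophobin gene of the conidial surface, had a WT mean of 2393 ± 1331 CPM and a ΔMSN1 mean of 1551 ± 1356 CPM (SD, n = 12), lower at 9 of 12 times (edgeR log2 fold change −0.88, adjusted p = 0.0187). It was the only one called of the 7 tested conidiation genes, whose median difference was 0.17 against 0.16 over all genes. The mean difference was above 0 in *con-8*, *fl*, *csp-1* and *csp-2* and below 0 in *con-6* and *con-10*. Of genes used in building knockout strains, *mus-51*, a subunit of the end-joining complex Ku, had a WT mean of 5.57 ± 1.28 CPM and a ΔMSN1 mean of 10.2 ± 3.84 CPM (log2 fold change 0.65, adjusted p = 0.00576), and its partner *mus-52* at 4.45 ± 0.66 and 5.79 ± 1.85 CPM (adjusted p = 0.345), so transcripts of both were present in both strains. In the list of 26 testable carbohydrate enzymes with a product name, edgeR called 4 lower (15.4%, against 9.93% of all genes) and 9 higher (34.6%, against 11.9%), with a median difference of 0.22 against 0.16. This list was drawn only from genes that the study listed as circadian or harmonic in WT, so all genes are not a like background.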
